A study of Homo sapiens with 9 samples.

Results

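The 7 genes described here, ATP12A, LRRN3, RBPMS, HBEGF, CNTNAP3P2, NBAS and EIPR1, were chosen because their RNA differed between clones g2_1 and g3_4, which were both made by disrupting LTA in the Hodgkin lymphoma cell line L-1236. Each symbol had 1 row, so they make up 7 of 20893 transcript clusters tested, of which 17705 carried a gene symbol. They were chosen by the difference of their log2 signals, g2_1 minus g3_4, and that difference is given below without a test. The mean of both clones against control is a different contrast and was tested. That test uses the same estimate of spread as the clone difference, and the genes were chosen with earlier results of these data known. Its p-values are therefore not free of the choice. The genes were not the 7 with the most different signals: by the size of the clone difference they ranked 1, 2, 6, 10, 11, 36 and 53 of 20893.

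L-1236 is a human cell line with features of Hodgkin and Reed-Sternberg cells, and LTA encodes lymphotoxin alpha, a cytokine of the tumour necrosis factor family. RNA was measured on Clariom S arrays, 3 in each group. In clone g2_1 the guide was directed at the second exon of the gene, and in clone g3_4 at the fourth exon (vector label lentiCRIPSPR_v2-LTA_g3). The control, called v2 after its vector and wild type in its sample titles, is labelled with no guide against this gene. Each guide is represented by 1 single-cell clone, so a guide, a clone and any other trait of that clone cannot be told apart. Knockout clones were cultured in conditioned medium of L-1236 cells, and RNA was taken after 72 h in normal medium with 10% heat-inactivated FCS. The labels do not say whether control cells were a clone or were kept in conditioned medium, nor whether arrays of a group were separate cultures, so the p-values rest on a spread between arrays that could be technical only.

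The genes have unrelated textbook roles. ATP12A is the catalytic subunit of the non-gastric proton-potassium pump, which works with a beta subunit in the membrane of some epithelia. LRRN3 is a leucine-rich repeat protein of neuronal membranes, and RBPMS binds RNA and acts in splicing in smooth muscle. HBEGF is a membrane-anchored growth factor that is shed by metalloproteases and binds the receptors EGFR and ERBB4. CNTNAP3P2 is a pseudogene of the contactin-associated protein family. NBAS is part of the NRZ complex, which tethers vesicles that return to the endoplasmic reticulum, and has also been tied to nonsense-mediated decay of RNA. EIPR1 binds the EARP complex of endosomal recycling.

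Among the genes with a promoter entry, sequences are shown for a pair that was highest in g3_4 and a pair that was lowest in g2_1, to let their base composition and short motifs be compared. RefSeq promoters of assembly GRCh38.p14, from 250 bases before to 50 bases after the gene start, were matched for 5 of the 7 genes (ATP12A, LRRN3, HBEGF, NBAS and EIPR1). Capitals mark letters that matched 1 of 8 short motifs on either strand. These were the TATA box TATAAA, the CCAAT box, the GC box GGGCGG, the AP-1 motif TGANTCA, the CRE core TGACGT, the kappa B motif, the STAT motif TTCNNNGAA and the E-box CACGTG. ATP12A (chr13:24680158-24680457, plus strand) and LRRN3 (chr7:111090877-111091176, plus strand) are the pair that was highest in g3_4.
ATP12A: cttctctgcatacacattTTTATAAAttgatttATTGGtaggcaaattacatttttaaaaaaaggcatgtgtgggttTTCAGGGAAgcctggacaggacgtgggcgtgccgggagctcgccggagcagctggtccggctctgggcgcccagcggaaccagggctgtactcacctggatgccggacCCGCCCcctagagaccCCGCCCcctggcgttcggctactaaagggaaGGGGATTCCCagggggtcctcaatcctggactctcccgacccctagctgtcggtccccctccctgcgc
LRRN3: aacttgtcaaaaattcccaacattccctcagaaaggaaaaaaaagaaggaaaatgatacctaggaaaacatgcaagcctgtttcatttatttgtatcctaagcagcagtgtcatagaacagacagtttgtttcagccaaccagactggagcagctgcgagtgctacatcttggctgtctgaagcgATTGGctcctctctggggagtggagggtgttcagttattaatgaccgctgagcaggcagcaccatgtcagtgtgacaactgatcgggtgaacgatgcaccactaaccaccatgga
NBAS (chr2:15561285-15561584, minus strand) and EIPR1 (chr2:3377769-3378068, minus strand) are the pair on chromosome 2 that was lowest in g2_1, and each is printed along its own coding strand.
NBAS: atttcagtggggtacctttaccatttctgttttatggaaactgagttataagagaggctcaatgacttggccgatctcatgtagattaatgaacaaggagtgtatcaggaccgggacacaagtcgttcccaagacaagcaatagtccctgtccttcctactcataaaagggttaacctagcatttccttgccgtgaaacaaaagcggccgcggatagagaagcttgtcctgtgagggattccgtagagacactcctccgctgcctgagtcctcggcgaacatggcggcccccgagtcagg
EIPR1: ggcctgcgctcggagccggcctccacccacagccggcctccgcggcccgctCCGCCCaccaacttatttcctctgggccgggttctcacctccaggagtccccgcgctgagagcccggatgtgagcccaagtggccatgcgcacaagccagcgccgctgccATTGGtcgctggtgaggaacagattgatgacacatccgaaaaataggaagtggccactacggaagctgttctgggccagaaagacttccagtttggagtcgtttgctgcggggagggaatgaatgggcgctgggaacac
The paired promoters had few of these letters in common. The ATP12A window held TATAAA on both strands in overlapping letters, the CCAAT box, the GC box at 2 places, the kappa B motif and the STAT motif. The LRRN3 window held the CCAAT box, which was also in ATP12A and EIPR1. The GC box was in the windows of ATP12A, EIPR1 and HBEGF, at 5 places in HBEGF, of which a pair overlapped by 1 base. No letters of NBAS matched. Among all 35116 promoters of that length, 11.5% held the TATA box, 34.6% the CCAAT box, 45.0% the GC box, 5.68% the kappa B motif and 7.66% the STAT motif. The AP-1 motif, the CRE core and the E-box, held by 7.71%, 7.98% and 7.26% of promoters, were in none of the 5 windows. The windows also differed in base composition, with 75% G and C in HBEGF, 63.0% in EIPR1, 59.0% in ATP12A, 49.7% in NBAS and 46.0% in LRRN3, against a median of 58.7% over all promoters. A match describes letters only and is no evidence of a bound factor.

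The targeted gene was checked first. LTA had log2 signals of 7.97, 7.53 and 7.11 in g2_1 and 6.94, 7.25 and 6.61 in g3_4, against 11.58, 11.07 and 11.08 in control. The mean of both clones was lower than control by a log2 difference of -4.01 (SE 0.20, limma adjusted p = 1.8e-07). The clones overlapped each other in LTA, with a difference of g2_1 minus g3_4 of 0.60 (limma adjusted p = 0.98). Defining markers fit the labelled line in part: TNFRSF8, the CD30 antigen, averaged 11.89 in g2_1, 11.81 in g3_4 and 11.11 in control, while CD40 averaged 5.0 in g2_1, 4.85 in g3_4 and 9.70 in control. Of 8 T and NK lineage markers, 3 rose and 0 fell in the clones, with array means of 6.87 to 7.0 in g2_1 and 6.91 to 6.93 in g3_4, against 6.25 to 6.69 in control, while of 10 markers of Hodgkin and Reed-Sternberg cells 2 rose and 5 fell, with array means of 8.82 to 8.90 in g2_1 and 8.79 to 8.82 in g3_4, against 9.46 to 9.93 in control. Of 6 B-lineage markers 1 rose and 2 fell, and the defining B-cell marker MS4A1 was low throughout, at 4.39 in g2_1, 4.40 in g3_4 and 4.38 in control. Over all transcript clusters 8.13% rose and 9.83% fell in the clones averaged. Of all 38 markers examined 14 passed limma's test there. With unequal variances 0 of these markers passed, against 895 of 20893 transcript clusters that passed. Calls of NCAM1, BLNK and JUNB among these markers were lost without some single arrays (adjusted p of 0.057 to 0.13). The part of these marker shifts in the differences from control below was not tested. In g2_1 against g3_4, fitted without replicate number as a block, 0 of 38 markers passed limma's adjusted threshold, against 0.0526% of all transcript clusters. An unadjusted p under 0.05 was found for 0 of the 38, against 4.41%. With unequal variances 0 of the 38 passed, as did 0 of all 20893 transcript clusters. At these shares the counts say little about whether the markers separate the clones. In such bulk samples, fewer cells of a type and less RNA per cell cannot be told apart.

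Clone and control signals formed 3 patterns. ATP12A, LRRN3 and RBPMS were highest in g3_4, lower in g2_1 and lowest in control. HBEGF was highest in g2_1. CNTNAP3P2, NBAS and EIPR1 were lowest in g2_1. All 6 clone arrays lay on one side of the 3 control arrays for 6 of the 7 genes, all but CNTNAP3P2, and for 20.4% of all transcript clusters. The 3 groups were pairwise separate for those same 6 genes, and in CNTNAP3P2 g3_4 overlapped control. The clones did not overlap each other in any of the 7, as in 11.5% of all transcript clusters. Of all transcript clusters, 3.16% had 3 separate groups, and nothing is read from these last counts because the choice used the gap between clones.

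**Figure D1:**
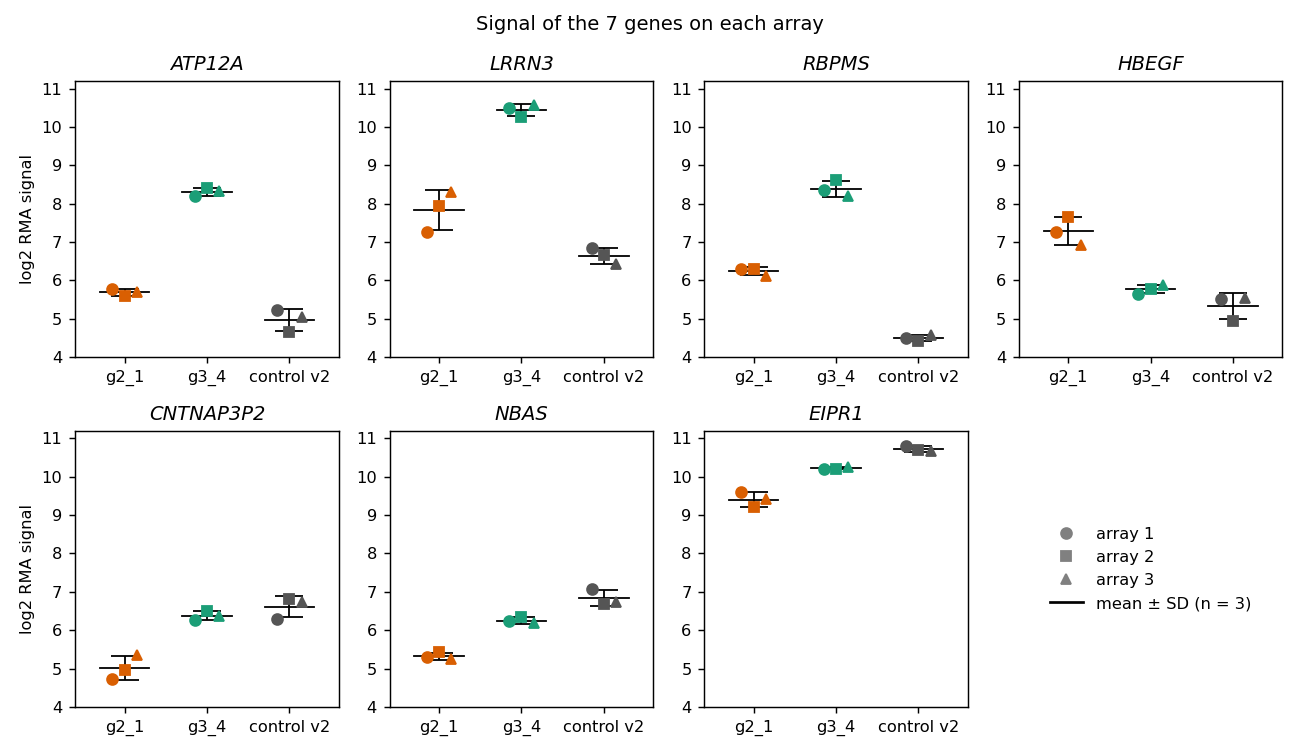
Log2 RMA signal (vertical axis) of the 7 genes on each of the 9 arrays, by group (horizontal axis). Symbols are arrays 1 to 3, and black bars are the mean ± SD of 3 arrays. ATP12A, LRRN3 and RBPMS peak in g3_4, with means of 8.31, 10.45 and 8.39, HBEGF peaks in g2_1 at 7.29, and NBAS and EIPR1 are lowest in g2_1, at 5.32 and 9.40.

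In the clones averaged against control, all 7 genes passed limma's test at an adjusted p under 0.05, 4 higher and 3 lower, while 18.0% of all transcript clusters did (8.13% higher and 9.83% lower). With unequal variances the gap between the clones counts as spread, and the genes were chosen for that gap. Their outcome in this test was therefore in part set by the choice. RBPMS alone passed there, at an adjusted p of 0.048, and the other 6 had 0.068 to 0.23. With a log2 change of at least 1 asked for as well, 4 of the 7 rose and 1 fell, while 4.18% of transcript clusters passed (0.957% higher and 3.22% lower). NBAS, the gene that fell, went under that size with centred arrays (-0.93), with array weights (-0.94), without array 1 of control (-0.93) and without the arrays numbered 1 (-0.92), and HBEGF did without array 2 of control (0.99). The genes were chosen with earlier results of these data known, so these counts describe them and do not set them apart from other genes. In g2_1 against g3_4, 11 transcript clusters, or 0.0526%, had an adjusted p under 0.05, and the 7 genes were among them by the way they were chosen. Of these 11, 9, or 0.0431%, also had a log2 difference of at least 1. With replicate number as a block, which the array-to-array deviations of the clones call for, there were 15. Without array 2 of g2_1 there were 4, without array 3 of g3_4 there were 5, and without array 1 of control there were 21.

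ATP12A, the pump subunit, had log2 signals of 5.78, 5.60 and 5.69 in g2_1 and 8.20, 8.40 and 8.34 in g3_4, against 5.22, 4.65 and 5.04 in control. All g3_4 arrays were far above the rest, and the g2_1 arrays lay above all control arrays by at least 0.38. The log2 difference from control was 3.34 in g3_4 (SE 0.14, 10.1-fold) and 0.72 in g2_1 (SE 0.14, 1.65-fold). Thus most of the clones' shared rise of 2.03 (SE 0.12, limma adjusted p = 7.3e-07, 6 of 6 clone arrays above control) came from g3_4. Between the clones ATP12A differed by -2.62 (g2_1 minus g3_4, SE 0.14, 6.16-fold), the first rank of all transcript clusters.

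LRRN3, the neuronal membrane protein, had signals of 7.27, 7.95 and 8.31 in g2_1 and 10.51, 10.27 and 10.57 in g3_4, against 6.84, 6.66 and 6.43 in control. The g2_1 arrays were the most scattered of any group among the 7 genes, with an SD of 0.53, and still lay above control by at least 0.43. The difference from control was 3.81 in g3_4 (SE 0.22, 14.0-fold) and 1.20 in g2_1 (SE 0.22, 2.30-fold). Averaged over both clones, LRRN3 rose by 2.50 (SE 0.19, limma adjusted p = 6.6e-06). The clones differed by -2.61 (SE 0.22, 6.09-fold).

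RBPMS, the RNA-binding protein, had signals of 6.31, 6.31 and 6.12 in g2_1 and 8.35, 8.61 and 8.20 in g3_4, against 4.50, 4.43 and 4.57 in control. The groups formed 3 steps with at least 1.55 between neighbouring ones. The difference from control was 3.89 in g3_4 (SE 0.12, 14.8-fold) and 1.75 in g2_1 (SE 0.12, 3.36-fold), and the mean of both clones rose by 2.82 (SE 0.10, limma adjusted p = 1.4e-08). The control mean of 4.50 was under 4.64, the lower quartile of all values on the arrays, where fold changes are compressed. The clones differed by -2.14 (SE 0.12, 4.41-fold).

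HBEGF, the growth factor, was the member with the opposite order of the clones. It had signals of 7.27, 7.66 and 6.93 in g2_1 and 5.66, 5.78 and 5.88 in g3_4, against 5.53, 4.94 and 5.55 in control. The g2_1 arrays were above all others, and the g3_4 arrays were above control by only 0.11 at the closest. The difference from control was 1.95 in g2_1 (SE 0.20, 3.85-fold) and 0.43 in g3_4 (SE 0.20, 1.35-fold), and the g3_4 value moved to 0.23 without array 2 of control. Averaged over both clones HBEGF rose by 1.19 (SE 0.17, limma adjusted p = 0.00068), and the clones differed by 1.51 (SE 0.20, 2.85-fold).

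CNTNAP3P2, the pseudogene, had signals of 4.72, 4.97 and 5.36 in g2_1 and 6.27, 6.50 and 6.36 in g3_4, against 6.30, 6.81 and 6.74 in control. Only g2_1 stood apart: its difference from control was -1.60 (SE 0.18, 3.03-fold), and that of g3_4 was -0.24 (SE 0.18, 1.18-fold). The g3_4 value moved to -0.40 without array 1 of control and to -0.14 without array 2 of control. The mean of both clones was lower by -0.92 (SE 0.15, limma adjusted p = 0.0016), and the clones differed by -1.36 (SE 0.18, 2.57-fold). Contactin-associated genes have near-identical copies, and whether probes of this row also read CNTNAP3 or CNTNAP3B was not tested. CNTNAP3 averaged 5.05 in g2_1, 5.49 in g3_4 and 5.39 in control, with a clone difference of -0.44 that did not pass limma's test (adjusted p = 0.70). CNTNAP3B averaged 4.81 in g2_1, 5.0 in g3_4 and 5.09 in control, with a clone difference of -0.19.

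NBAS, the tethering subunit, had signals of 5.30, 5.42 and 5.24 in g2_1 and 6.23, 6.34 and 6.18 in g3_4, against 7.07, 6.68 and 6.74 in control. The 3 groups were separate, with g3_4 in between and 0.34 below control at the closest. The difference from control was -1.51 in g2_1 (SE 0.12, 2.85-fold) and -0.58 in g3_4 (SE 0.12, 1.49-fold). The mean of both clones fell by 1.04 (SE 0.10, limma adjusted p = 4.2e-05), and the clones differed by -0.93 (SE 0.12, 1.91-fold).

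EIPR1, the EARP-binding protein, lies on the same chromosome and had the same order of groups. Its signals were 9.59, 9.20 and 9.42 in g2_1 and 10.21, 10.21 and 10.25 in g3_4, against 10.81, 10.69 and 10.67 in control. The g3_4 arrays were nearly identical, with an SD of 0.02, and all groups were separate. The difference from control was -1.32 in g2_1 (SE 0.11, 2.50-fold) and -0.50 in g3_4 (SE 0.11, 1.41-fold). The mean of both clones fell by 0.91 (SE 0.10, limma adjusted p = 7.0e-05), and the clones differed by -0.82 (SE 0.11, 1.77-fold).

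**Figure D2:**
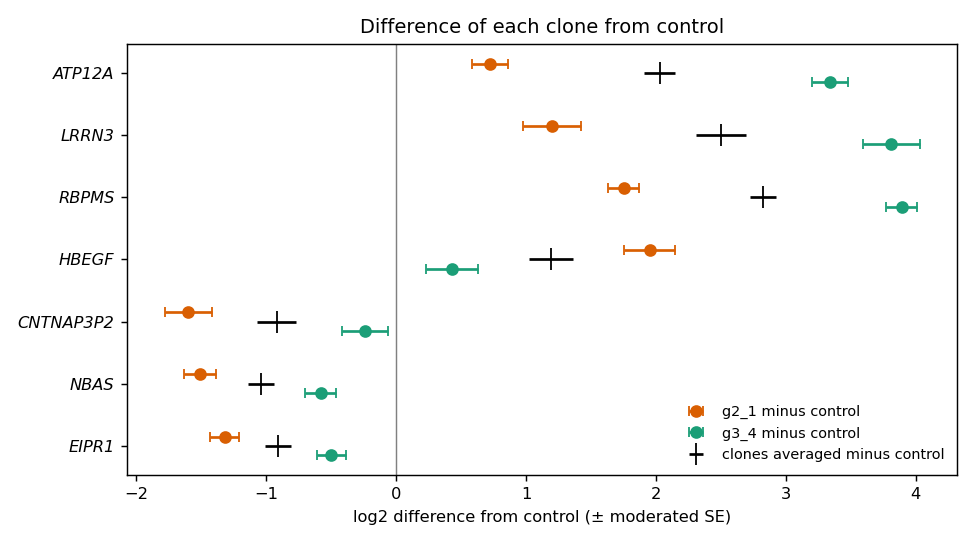
Log2 difference from control (horizontal axis) with its moderated SE for each of the 7 genes (rows). Orange points are g2_1 minus control, green points g3_4 minus control, and black ticks the mean of both clones minus control. For ATP12A, LRRN3 and RBPMS the g3_4 point is farther to the right than the g2_1 point, while for HBEGF, CNTNAP3P2, NBAS and EIPR1 the g2_1 point is farther from 0.

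A distance between profiles was taken as the root mean square difference of the 9 log2 values after each gene's own mean was subtracted. NBAS and EIPR1 were closest among the 7, at 0.169. ATP12A, LRRN3 and RBPMS were 0.401 to 0.449 from each other, and HBEGF was 1.40 to 1.84 from every other member. CNTNAP3P2 lay 0.345 from NBAS and 0.346 from EIPR1.

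Among all named transcript clusters, the nearest to each gene of the trio were the other two and then, for ATP12A and LRRN3, TRIM29 (0.671 and 0.682), which averaged 7.05 in g2_1, 8.23 in g3_4 and 5.76 in control. For RBPMS the next was FAM30A at 0.554. Those nearest to HBEGF were GNB4 (0.407), a G protein beta subunit with means of 9.60 in g2_1, 8.49 in g3_4 and 8.36 in control, TMEM98 (0.445) and OR3A1 (0.451). CNTNAP3P2 was nearest to TTC32 (0.273), then HLA-DRB1 (0.338), which averaged 9.10 in g2_1, 10.30 in g3_4 and 10.19 in control, and NBAS. After EIPR1, NBAS was nearest to MMACHC (0.220) and TRAPPC12 (0.254), and after NBAS, EIPR1 was nearest to FOXP1 (0.203) and IRF1 (0.222). The 7 genes were chosen for the clone difference, which enters this distance, so closeness among them follows in part from the choice. These profiles span 9 arrays of 3 groups and share the arrays' preparation, so they are a description.

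Genes that work with the 7 or are related to them were examined, with 85 measured genes in 10 lists. In the clones averaged, 18 of the 85 passed limma's test, against 18.0% of all transcript clusters. In g2_1 against g3_4, where 0.0526% of all transcript clusters passed, 0 of the 85 passed in the fit without the replicate block. With unequal variances 0 of the 85 passed, but 0 of all 20893 transcript clusters did too, so that count could not have differed. An unadjusted p under 0.05 was found for 6 of the 85 (7.06%), against 4.41% of all transcript clusters. At a background share of 0.0526% a count of 0 says little about these genes.

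**Figure D3:**
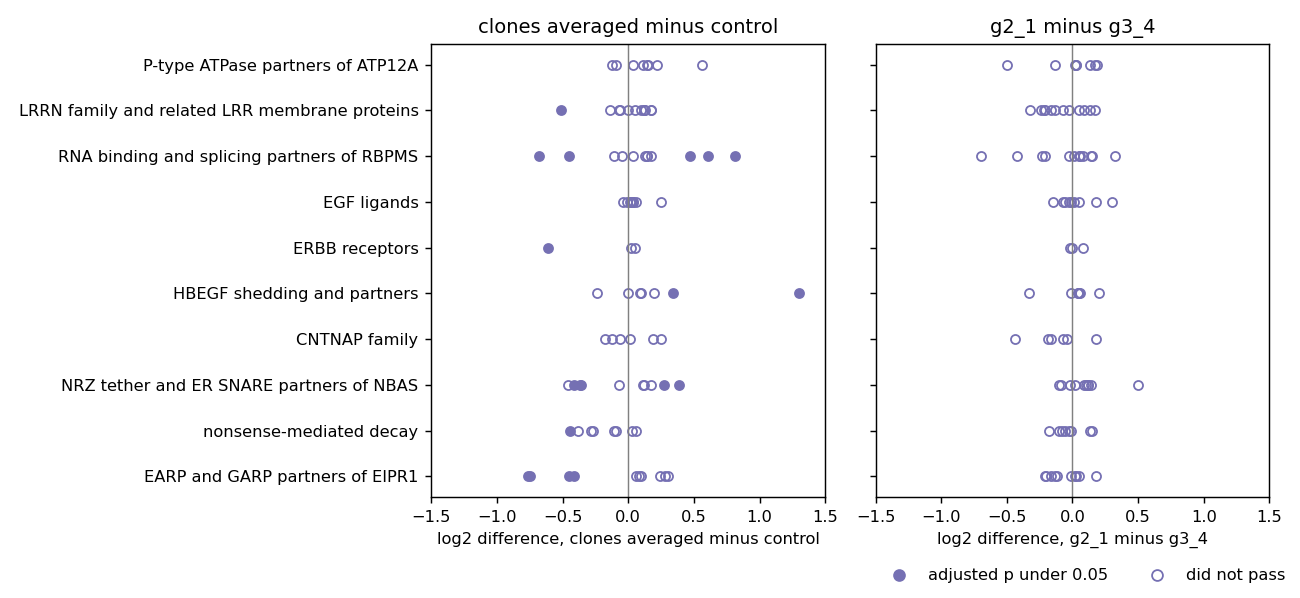
Log2 difference (horizontal axis) of each measured gene in the 10 lists (rows), for the clones averaged minus control on the left and g2_1 minus g3_4 on the right. Filled points passed limma's adjusted threshold and open points did not. On the left 18 genes are filled, with CD9 at 1.30 farthest right, and on the right none is filled.

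Few of the genes related to the pump and to the membrane protein passed limma's test. Of 8 measured sodium, potassium and proton pump subunits and FXYD regulators, 0 passed in the clones averaged (median log2 difference 0.13, 2 with an unadjusted p under 0.05 and 0 with unequal variances), and 3 rose when each array was centred on its own median. Centring raised the median log2 difference over every transcript cluster by 0.112, to 0.147 with centred arrays, against 0.035 as deposited. Of 11 leucine-rich repeat membrane proteins related to LRRN3, 0 passed limma's test, 0 had an unadjusted p under 0.05 and 0 passed with unequal variances. The host gene listed with them, IMMP2L, fell. It encodes a mitochondrial inner membrane peptidase subunit, LRRN3 lies in its intron, and it averaged 6.36 in g2_1, 6.52 in g3_4 and 6.95 in control (log2 difference -0.51, SE 0.11, limma adjusted p = 0.0088). Of the 12 genes in that list, 7 in g2_1, 6 in g3_4 and 8 in control had means under 4.64. That is the lower quartile of all values on the arrays, where fold changes are compressed.

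Of 12 RNA-binding proteins of the splicing group, 3 rose and 2 fell, against 8.13% and 9.83% of all transcript clusters. With unequal variances 2 of the 12 passed, against 895 of 20893 transcript clusters. CELF2 rose by 0.81 (SE 0.13, limma adjusted p = 0.0014), RBFOX2 by 0.47 (SE 0.09, adjusted p = 0.0034) and MBNL1 by 0.61 (SE 0.18, adjusted p = 0.034). The MBNL1 control arrays read 10.98, 11.68 and 12.01, and its rise was 0.33 without array 1 of control. MBNL1 did not pass when array 2 of control or any 1 of the 6 clone arrays was left out (adjusted p of 0.062 to 0.065). CELF1 fell by 0.68 (SE 0.11, adjusted p = 0.0011) and PTBP3 by 0.45 (SE 0.08, adjusted p = 0.0020). The closest relative of RBPMS, RBPMS2, averaged 4.31 in g2_1, 4.25 in g3_4 and 4.14 in control.

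Genes of HBEGF's own family and processing were examined next. Of 9 other EGF-family ligands 0 passed, with a median of 0.02 (1 with an unadjusted p under 0.05, 0 with unequal variances, and 1, TGFA, with centred arrays). In each group 6 of the 9 had means under 4.64, the lower quartile of all values, where fold changes are compressed. Of 3 ERBB receptors measured, ERBB4 fell by 0.61 (SE 0.08, limma adjusted p = 0.00040), and EGFR averaged 4.79 in g2_1, 4.70 in g3_4 and 4.70 in control. Of 7 genes of shedding and partners, 2 rose, against 18.0% of all transcript clusters changed in either direction, and 0 passed with unequal variances. CD9, a tetraspanin that binds the HBEGF precursor, averaged 10.07 in g2_1, 10.08 in g3_4 and 8.77 in control (log2 difference 1.30, SE 0.26, limma adjusted p = 0.0053). Its control arrays read 7.83, 9.20 and 9.28, and without array 1 of control the difference was 0.83. The protease ADAM10 rose by 0.34 (SE 0.09, adjusted p = 0.021), and did not pass without array 1 of control (adjusted p = 0.065) or array 2 of control (adjusted p = 0.086). ADAM17, the main shedding protease of HBEGF, averaged 9.33 in g2_1, 9.66 in g3_4 and 9.73 in control. 

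Partners of NBAS and EIPR1 followed, to be read against 8.13% of all transcript clusters that rose and 9.83% that fell. In the NRZ list 2 of 10 genes passed with unequal variances, as did 2 of 10 in the EARP and GARP list. Of 10 genes of the NRZ tether and its SNARE proteins, NSF rose by 0.39 (SE 0.10, limma adjusted p = 0.017) and USE1 by 0.27 (SE 0.08, adjusted p = 0.046). RINT1 fell by 0.41 (SE 0.11, adjusted p = 0.021) and SEC22B by 0.37 (SE 0.09, adjusted p = 0.019). Each of the 4 calls was lost with 1 array left out. NSF did not pass without array 2 of control (adjusted p = 0.075), RINT1 without array 1 of control (0.065), SEC22B without array 2 of control (0.091), and USE1 when any 1 array other than array 3 of g3_4 was left out (0.064 to 0.13). With centred arrays neither RINT1 nor SEC22B passed, at adjusted p of 0.068 and 0.074, and ZW10 passed as a rise. On the deposited scale ZW10 averaged 9.04 in g2_1, 8.92 in g3_4 and 8.81 in control. Of 8 genes of nonsense-mediated decay, SMG9 fell by 0.44 (SE 0.09, adjusted p = 0.0081).

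Of 10 genes of the EARP and GARP complexes and their partners, 0 rose and 4 fell. VPS52 fell by 0.76 (SE 0.10, limma adjusted p = 0.00049), STX6 by 0.75 (SE 0.11, adjusted p = 0.00059), VPS54 by 0.45 (SE 0.09, adjusted p = 0.0047) and VTI1A by 0.41 (SE 0.10, adjusted p = 0.015). VTI1A did not pass with centred arrays, at an adjusted p of 0.054, or without array 3 of control, at 0.067. With centred arrays VPS53 passed as a rise. VPS50, the subunit by which EARP differs from GARP, averaged 7.64 in g2_1, 7.59 in g3_4 and 7.33 in control. Of the CNTNAP family 0 of 6 passed, with a median of -0.03 (0 with an unadjusted p under 0.05 and 0 with unequal variances).

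The neighbours of each gene on its chromosome were then examined, 10 measured genes on each side where there were as many. In g2_1 against g3_4, 0 of 138 neighbours passed limma's adjusted threshold without the replicate block, against 0.0526% of all transcript clusters. With unequal variances 0 of the 138 passed, but 0 of all 20893 transcript clusters did too, so that count could not have differed. An unadjusted p under 0.05 was found for 13 of the 138 (9.42%), against 4.41% of all transcript clusters, and 7 of these 13 were beside EIPR1. The median of g2_1 minus g3_4 beside ATP12A was -0.02, beside LRRN3 -0.03, beside RBPMS 0.07, beside HBEGF 0.00 and beside CNTNAP3P2 0.03, while that over all transcript clusters was 0.00. Beside NBAS it was -0.08, with 11 of 20 neighbours negative, and beside EIPR1 it was -0.18, with 15 of 18 negative.

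**Figure D4:**
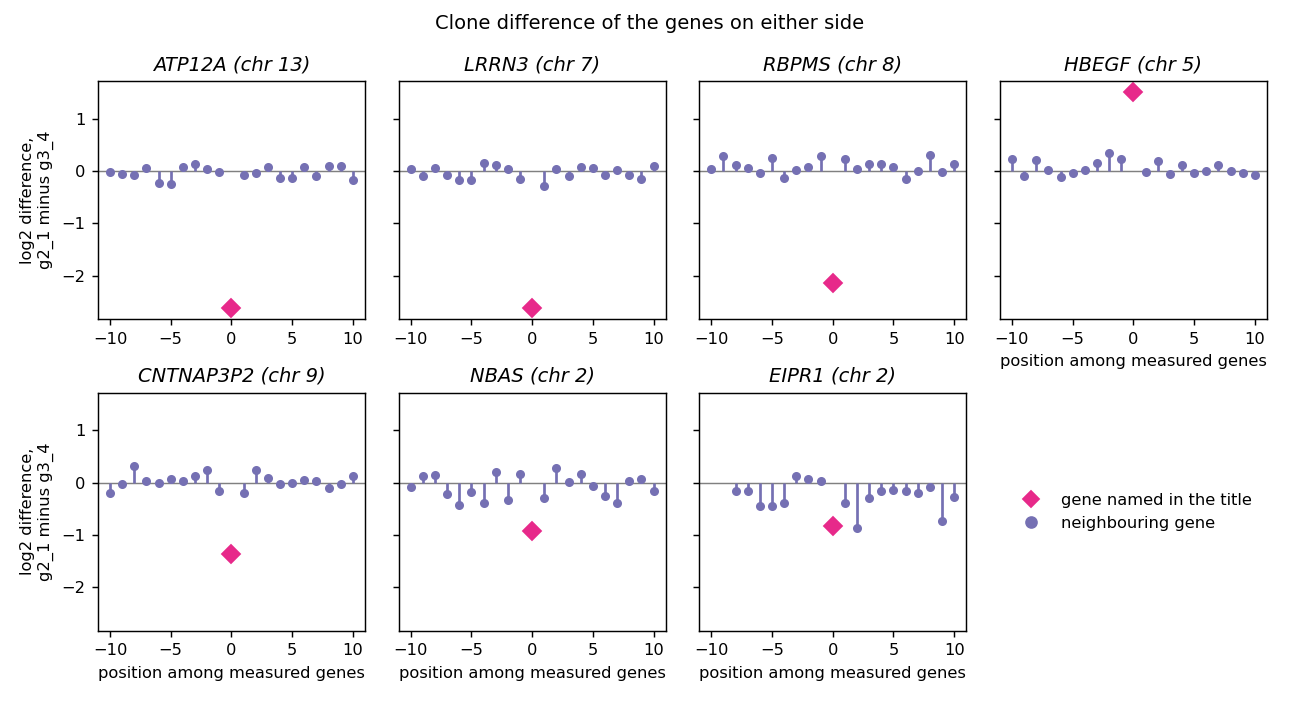
Log2 difference of g2_1 minus g3_4 (vertical axis) of each of the 7 genes (pink diamond, position 0) and of the measured genes on either side by order along the chromosome (purple points). The genes beside ATP12A, LRRN3, RBPMS, HBEGF and CNTNAP3P2 lie around 0, with medians of -0.03 to 0.07, and those beside EIPR1 are mostly below 0, with a median of -0.18.

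Next to ATP12A, PARP4 averaged 9.83 in g2_1 and 9.85 in g3_4, against 9.63 in control, and RNF17 averaged 3.97 in g2_1 and 4.04 in g3_4, against 3.94 in control. Next to RBPMS, DCTN6 averaged 8.41 in g2_1, 8.13 in g3_4 and 8.03 in control, so its small clone difference of 0.28 had the opposite sign to that of RBPMS. GTF2E2 on the other side of RBPMS averaged 8.23 in g2_1, 8.0 in g3_4 and 7.82 in control. Next to HBEGF, PFDN1 averaged 9.65 in g2_1, 9.42 in g3_4 and 9.46 in control. Its clone difference of 0.23 had the sign of that of HBEGF, and the clones did not overlap. SLC4A9 on the other side averaged 4.35 in g2_1, 4.38 in g3_4 and 4.33 in control. These flanking genes did not take steps as large as those of the genes they stand beside. RNF17 and SLC4A9 had means under 4.64, the lower quartile of all values, where fold changes are compressed. DOCK4 on the other side of LRRN3 from IMMP2L averaged 6.15 in g2_1, 6.44 in g3_4 and 5.71 in control (clones averaged 0.59, limma adjusted p = 0.029). The call of DOCK4 was lost when any 1 array other than array 3 of g2_1, array 3 of g3_4 or array 1 of control was left out (adjusted p of 0.056 to 0.14). FAM27E3 beside CNTNAP3P2 was lower in both clones, at 7.41 in g2_1 and 7.61 in g3_4, against 8.91 in control. The clones averaged differed from control by -1.40 (limma adjusted p = 0.00095). SPATA31A3 on the other side of CNTNAP3P2 averaged 6.64 in g2_1, 6.80 in g3_4 and 6.65 in control.

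Around EIPR1, 15 of 18 neighbours were lower in g2_1 than in g3_4, with differing positions of control. ACP1, a small tyrosine phosphatase, had signals of 10.25, 10.01 and 10.05 in g2_1 and 10.66, 10.48 and 10.52 in g3_4, against 10.63, 10.73 and 10.79 in control. ADI1, an enzyme of methionine salvage, had signals of 8.88, 8.66 and 8.64 in g2_1 and 9.76, 9.47 and 9.55 in g3_4, against 9.76, 9.42 and 9.08 in control. In both genes the g2_1 arrays were below all other arrays, while g3_4 overlapped control. TRAPPC12, a vesicle-transport subunit directly beside EIPR1, averaged 7.59 in g2_1, 7.97 in g3_4 and 8.89 in control (clones averaged -1.11, limma adjusted p = 0.00029). MYT1L on the other side of EIPR1 averaged 4.89 in g2_1, 4.85 in g3_4 and 4.95 in control, with a clone difference of 0.03. TMEM18 averaged 9.26 in g2_1, 9.65 in g3_4 and 9.96 in control (clones averaged -0.50, limma adjusted p = 0.0013). ALKAL2, a ligand of the receptor ALK, was higher in both clones instead, at 10.85 in g2_1 and 11.28 in g3_4, against 10.44 in control (clones averaged 0.62, limma adjusted p = 0.0048). None of these clone differences passed limma's test without the replicate block, and their results with that block are not given. That of ADI1 was -0.87 (adjusted p = 0.17), of ACP1 -0.45 (0.36), of TMEM18 -0.39 (0.43) and of ALKAL2 -0.44 (0.78).

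Next to NBAS the pattern was weaker. DDX1, an RNA helicase, averaged 8.56 in g2_1, 8.85 in g3_4 and 9.42 in control (clones averaged -0.72, limma adjusted p = 0.025). DDX1 did not pass without array 2 of g2_1 (adjusted p = 0.059), array 3 of g2_1 (0.057) or array 1 of control (0.084). LRATD1 on the other side averaged 6.09 in g2_1, 5.92 in g3_4 and 6.01 in control. Among the 7 neighbours of NBAS whose level was at or above the median of all transcript clusters, 6 were negative in g2_1 minus g3_4 (median -0.29). Among the 7 such neighbours of EIPR1, 7 were negative (median -0.39). Among all named transcript clusters at or above that level 46.8% were negative. Beside HBEGF the 13 such neighbours had a median of 0.12, with 5 negative. Beside ATP12A, LRRN3, RBPMS and CNTNAP3P2 the medians were -0.02 to 0.07. That restriction was chosen after seeing the data.

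Between EIPR1 and NBAS lie 38 measured genes, of which 31 were lower in g2_1 than in g3_4 (median -0.20). Over all transcript clusters 49.5% were lower, and 46.8% of the named ones at or above the median level. To set this stretch beside the rest of the genome, named transcript clusters at or above the median level were cut into 360 blocks of up to 25 along the chromosomes, with the 7 genes left out, a summary chosen after seeing the data. The first block of chromosome 2, within which EIPR1 lies, had the lowest median of all, -0.258, with 21 of 24 genes negative. The second, most of which lies past NBAS, had the next lowest, -0.123, with 17 of 25 negative. The 336 blocks of other chromosomes had medians of -0.093 to 0.430. In the other direction 5 blocks had medians larger in size than the first block, 4 on chromosome 3 (0.273 to 0.430) and 1 on chromosome 20 (0.270). Further blocks on chromosomes 3, 4, 14 and 20 were larger in size than the second block, such as 0.170 on chromosome 4. The stretch on chromosome 2 was thus the lowest and not the most different between the clones. Relative to control, the median of the first block was -0.118 in g2_1 and 0.112 in g3_4. Copy number was not measured, and its part in these values was not tested.

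**Figure D5:**
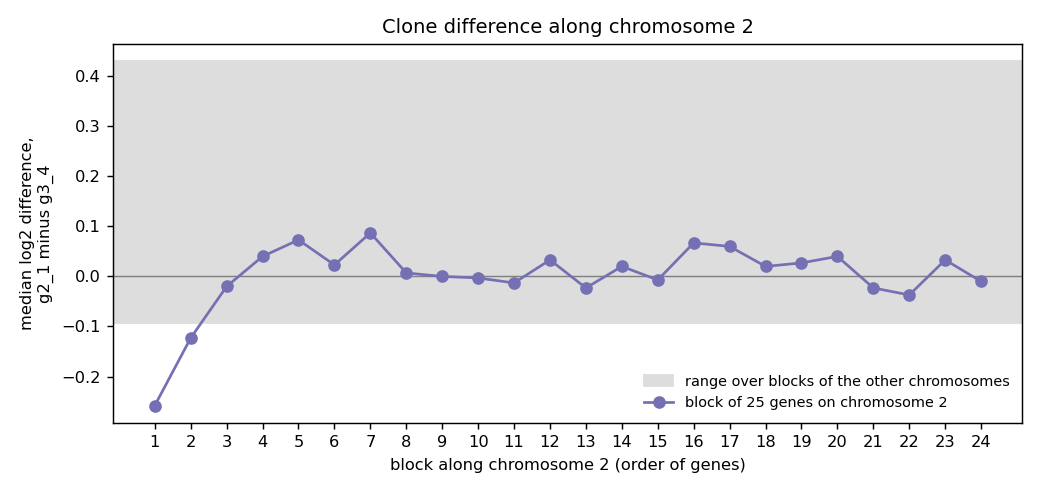
Median log2 difference of g2_1 minus g3_4 (vertical axis) in successive blocks of 25 genes along chromosome 2 (horizontal axis, 24 genes in the first block, where EIPR1 was left out). The grey band is the range over blocks of the other chromosomes, -0.093 to 0.430. Blocks 1 and 2, at -0.258 and -0.123, are below the band, and the later blocks lie within it.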

How the data were processed

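RNA of 9 L-1236 samples was measured on Clariom S arrays. The deposited values are log2 signals made with RMA (background correction, quantile normalization and probe summary) in Transcriptome Analysis Console 4.0. The submitters' processing notes name these tools, and the genome build is not given in the sources used here. They carry no detection flags, so signal cannot be set against background, and folds near the floor are compressed.

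The 7 genes and all gene lists were chosen with earlier results of these data known. The 20893 transcript clusters were tested and 555 unmapped rows were left out. A symbol was found for 17705, and their gene IDs were matched in RefSeq GRCh38.p14, used for names, chromosome order and promoters. The fit used limma 3.58.1 with R 4.3.3 (linear model and empirical Bayes, all 9 arrays, 1 coefficient per group, two-sided), with Benjamini-Hochberg adjustment over all 20893. SDs are over 3 arrays and SEs are moderated. For the 7 genes a p is given only for the mean of both clones against control. The scripts were tested on simulated data. Named beside the 7 were LTA, the 3 nearest profiles of each, adjacent neighbours, changed list members and preset partners; ACP1, ADI1, TMEM18, ALKAL2, TGFA, VPS53, the cell markers and list members past the third changed were named after their values were seen.

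Same-numbered arrays of the clones deviated together (r of 0.435, 0.191 and 0.310), so number pairs the clones. Those of clone and control did not in every pair (r as low as 0.0426 for g2_1 and 0.0565 for g3_4). The p-values between the clones for markers, list genes and neighbours are from the fit without a replicate block. Their counts with that block are not given. Alternatives were array centring, a trended robust prior, array weights, unequal variances, a filter on low levels, unmapped rows, fewer groups, the replicate block, and leaving out each array or all arrays numbered 1, which had an RNA integrity number of 10 against 9.5 to 9.6 for the others. Leaving out arrays for list genes and neighbours was added after seeing the data. The number of arrays limits precision.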

Additional observations from a re-analysis of the deposited data

Results flagged for a closer look

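In 2 genes near or related to the 7, every g2_1 array was below and every g3_4 array above all control arrays. Their p-values are from the fit without the replicate block. CMPK2, a mitochondrial nucleotide kinase near EIPR1, averaged 4.48 in g2_1, 5.22 in g3_4 and 4.56 in control, with g2_1 minus g3_4 at -0.73 (limma adjusted p = 0.060). Its difference from control passed limma's test in g3_4 (0.65, adjusted p = 0.0024) and not in g2_1 (-0.08, adjusted p = 0.73), where both means were under 4.64, the lower quartile of all values. FXYD1, a pump regulator, averaged 4.83 in g2_1, 5.33 in g3_4 and 5.04 in control, with g2_1 minus g3_4 at -0.50 (limma adjusted p = 0.28). Its difference from control did not pass in g2_1 (-0.21, adjusted p = 0.22) or in g3_4 (0.28, adjusted p = 0.099).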

How the results depend on the processing

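For the 7 genes, the mean of both clones against control kept its direction in all 116 values recomputed under the alternatives and passed the adjusted threshold in 110. The other 6 came from the test with unequal variances, which counts the gap between the clones as spread: adjusted p was 0.15 for ATP12A (2.03), 0.10 for LRRN3 (2.50), 0.18 for HBEGF (1.19), 0.23 for CNTNAP3P2 (-0.92), 0.068 for NBAS (-1.04) and 0.075 for EIPR1 (-0.91), while RBPMS passed at 0.048. Over all alternatives the value was 1.87 to 2.16 for ATP12A, 2.39 to 2.73 for LRRN3, 2.76 to 2.93 for RBPMS, 0.99 to 1.35 for HBEGF, -1.08 to -0.81 for CNTNAP3P2, -1.12 to -0.92 for NBAS and -0.96 to -0.80 for EIPR1. The 7 genes were chosen for the gap between the clones, so the outcome with unequal variances was in part set by that choice. Between the clones 0 of 123 values reversed. The difference of LRRN3 in g2_1 against control was 1.58 without the arrays numbered 1.

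With unequal variances 262 transcript clusters were called in the clones averaged (873 in the reported fit), 30 in g2_1 against control (875), 51 in g3_4 against control (886) and 0 in g2_1 against g3_4 (9, or 11 without a fold). With rows of low mean left out, and so fewer tested, these were 521, 527 and 537 for the first 3. HBEGF, CNTNAP3P2 and NBAS drop out there. Leaving out 1 array gave 753 to 1019 in the clones averaged, 784 to 1022 in g2_1 against control, 760 to 1019 in g3_4 against control and 4 to 21 in g2_1 against g3_4. In that last comparison array weights gave 21, only the groups compared 18, the replicate block 15 and leaving out the arrays numbered 1 gave 21; the cause was not tested. The replicate block changed no call of the 7 in the clones averaged. Centred arrays gave 3 pump partners (0 before) and 1 EGF ligand (0 before). Other rows of a symbol did not exist, and a fit of only the groups compared is the reported fit for the clones averaged.

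By Pearson correlation, the nearest profile was LRRN3 for ATP12A (r = 0.972), IGF1 for LRRN3 (0.973) and for RBPMS (0.966), HSPH1 for HBEGF (0.943), CD74 for CNTNAP3P2 (0.955), and NBAS and EIPR1 for each other (0.968). Neighbour medians beside EIPR1 were -0.22 with 5 genes a side and -0.20 with 20, and beside NBAS -0.02 and -0.16.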
